A study of Mus musculus with 6 samples.

Results

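The clustered histone genes are the mouse genes whose symbols start with Hist1h, Hist2h, Hist3h or Hist4h. They were taken by symbol from the GENCODE M21 annotation of GRCm38, which lists 70 of them. Of these, 68 matched a row of the count files, among 46603 rows in all, while Hist1h2bh and Hist1h2bm did not match one. By the type of histone encoded there were 6 H1, 20 H2A, 17 H2B, 12 H3 and 13 H4 genes. By symbol, 54 were Hist1 genes on chromosome 13, 10 Hist2 genes on chromosome 3 and 3 Hist3 genes on chromosome 11. The last, Hist4h4, lies on chromosome 6. Among the Hist1 genes, Hist1h2al (chr13:51202727-51203065) lies far from the others. Of the 68, 3 are annotated as pseudogenes (Hist1h2aj, Hist1h2al and Hist3h2bb-ps).

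RNA came from the unsorted bone marrow of 3 mice that were NM1 KO and 3 that were NM1 WT, all C57/Bl6 and 8 months old, with 1 library for each mouse from its femurs and tibiae. NM1, nuclear myosin 1, is the nuclear product of Myo1c, which encodes a class I myosin. The labels give neither the cells in which the gene is lost nor the sex of the mice. Gene counts do not separate NM1 from the other products of its gene: Myo1c had 73.8, 59.1 and 59.7 CPM (counts scaled to the library size and per 1000000) in NM1 KO and 89.8, 115 and 102 CPM in NM1 WT. Its log2 fold change was -0.67 (SE 0.14, edgeR adjusted p = 0.0516), and all 3 NM1 KO values lay below the 3 NM1 WT values.

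Clustered histone genes are mostly made in S phase, when new DNA needs histones. Their usual mRNAs have no poly(A) tail. They end instead just after a short stem-loop in the 3′ UTR that is bound by the stem-loop binding protein (SLBP), and they are degraded when replication stops. Several of these genes can also give longer mRNAs that pass the stem-loop and end at an ordinary poly(A) signal, a form known from cells that are leaving the cell cycle and differentiating. Erythroblasts are such cells: they divide a few last times, condense their chromatin and expel the nucleus, and they make up a large part of the marrow. H2A, H2B, H3 and H4 form the core of the nucleosome, and H1 binds the DNA that enters and leaves it.

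The elements that set the end of these mRNAs were read from the annotated transcripts, and they are shown for the members on which the results turn. The stem-loop was searched on the transcript's own strand as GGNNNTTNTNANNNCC, 16 bases, within 150 bases after the stop codon, and 44 of the 68 members held it. It lay 21 to 58 bases after the stop codon. In 24 members it read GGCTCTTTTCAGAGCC, in 7 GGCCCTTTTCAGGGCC and in 6 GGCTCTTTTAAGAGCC. The capitals below mark the motif.
Hist1h1c (H1): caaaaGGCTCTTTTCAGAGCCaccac
Hist1h4i (H4): ttaaaGGCCCTTTTTAGGGCCaccac
Hist4h4 (H4): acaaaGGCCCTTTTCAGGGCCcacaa
Hist3h2a (H2A): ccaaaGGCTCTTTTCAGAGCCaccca
Hist3h2ba (H2B): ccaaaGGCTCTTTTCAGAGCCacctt
Hist1h2ap (H2A): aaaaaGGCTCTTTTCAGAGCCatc
The annotated transcript of Hist1h2ap stops 3 bases after the motif. That of Hist1h1c runs on for 840 bases, that of Hist1h4i for 330 bases and that of Hist4h4 for 2445 bases. Near the ends of these longer transcripts, and of that of Hist2h2be, stands a poly(A) signal, AATAAA or ATTAAA, in capitals here. It lies 20 bases before the transcript's end in Hist1h1c, 15 in Hist1h4i and 16 in Hist2h2be, but only 3 in Hist4h4.
Hist1h1c: gtatgcttctAATAAAaagcgtttag
Hist1h4i: ttctgtttacATTAAAagtattctat
Hist4h4: gaggagatgaAATAAAtac
Hist2h2be: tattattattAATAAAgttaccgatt
Of the 24 members without the motif, 20 have an annotated transcript that ends within 60 bases after the stop codon or has no coding part. The other 4 run on past that point, among them Hist1h2bc, 742 bases in a spliced transcript, and Hist2h2be, 2192 bases. The last 60 bases of that Hist1h2bc transcript hold neither AATAAA nor ATTAAA.

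Library totals lay between 15145052 and 22618802 counts, and each NM1 KO library was deeper than each NM1 WT library. A level of 1 CPM stood for 14.7 to 22.98 counts, so a member under 1 CPM rests on few reads. Only 1.10 to 1.32% of counts from 1 to 20 were odd, as when both mates of a pair are counted. Y-linked transcripts were present in NM1 KO 1, NM1 KO 2 and NM1 WT 2 and absent from the other 3 libraries. NM1 WT 2 lay apart from the other libraries on the second principal component of log2 CPM, at -61.8 against 4.45 to 20.6. Defining genes of marrow cells were abundant: neutrophil granule genes summed to 38889 to 50097 CPM in NM1 KO marrow, against 49999 to 67500 CPM in NM1 WT. Genes of skeletal muscle, which lies around the bones, summed to 126 to 160 CPM in NM1 KO marrow, against 43.5 to 51.9 CPM in NM1 WT.

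Clustered histone genes took a small share of the counts, and most of that share came from a few genes. The summed level of all 68 members was 453, 538 and 443 CPM in NM1 KO marrow, against 343, 322 and 371 CPM in NM1 WT. The 2 groups did not overlap, and NM1 KO 2 was the highest library. In mean the sum was 478 ± 52.3 CPM in NM1 KO marrow, against 346 ± 24.4 CPM in NM1 WT (SD, n = 3 each), a log2 ratio of 0.47. Hist1h1c alone took 42.4 to 50.2% of the sum in NM1 KO and 34.0 to 37.2% in NM1 WT. Hist1h1c, Hist1h2ap, Hist1h2bc, Hist1h4i and Hist2h2be together held 82.5% over all libraries, and they were the 5 members at 10 CPM or more. Hist3h2ba, Hist3h2a and Hist4h4 brought this to 88.3%. At the other end, 44 of the 68 members stayed under a mean of 1 CPM and 7 had 0 counts in every library. CPM is not per length, so longer transcripts weigh more in these sums. Neither poly(A) selection nor the counting of shared reads is stated, so counts may understate members without a tail or with close copies.

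Without Hist1h1c, the sum of the other members was 226, 272 and 255 CPM in NM1 KO marrow, against 218, 213 and 233 CPM in NM1 WT. Its log2 ratio was then 0.18, with means of 251 ± 23.3 CPM in NM1 KO marrow, against 221 ± 10.6 CPM in NM1 WT. NM1 KO 1 then fell within the range of the NM1 WT libraries.

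**Figure D1:**
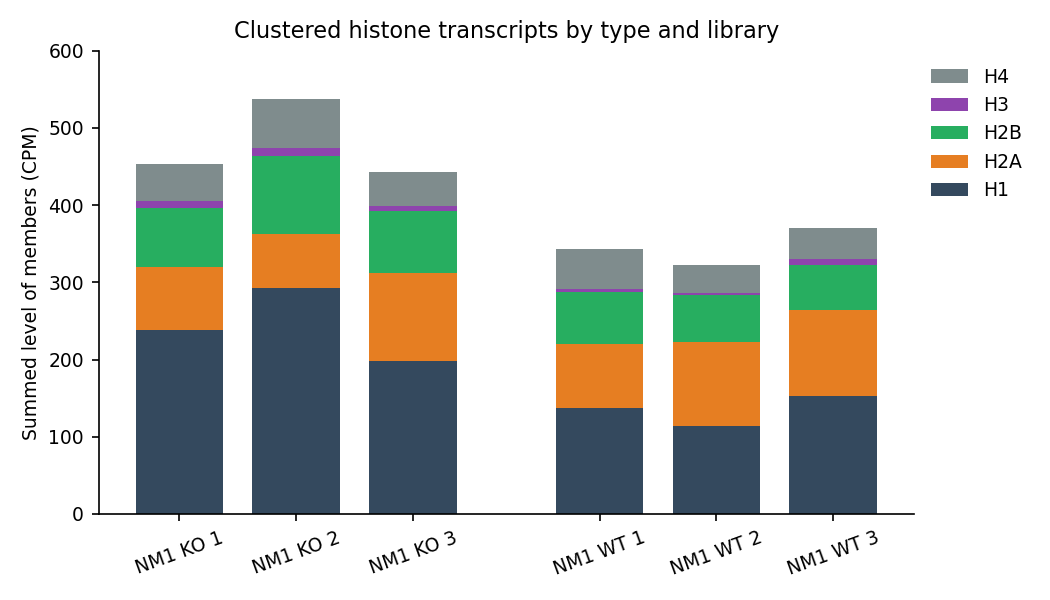
Summed CPM of the clustered histone genes in each library, stacked by type, with the 3 NM1 KO libraries left of the 3 NM1 WT libraries. The H1 layer is the largest in each library and reaches 199 to 292 CPM in NM1 KO marrow, against 113 to 153 CPM in NM1 WT.

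By type, the summed H1 level was 243 ± 47.1 CPM in NM1 KO marrow, against 134 ± 19.7 CPM in NM1 WT. H2A had 88.4 ± 22.4 CPM in NM1 KO marrow, against 101 ± 15.9 CPM in NM1 WT, with overlapping libraries. H2B had 85.7 ± 12.8 CPM in NM1 KO marrow, against 62.8 ± 4.22 CPM in NM1 WT. H3 had the fewest counts, with 8.75 ± 1.84 CPM in NM1 KO marrow, against 4.79 ± 1.96 CPM in NM1 WT. H4 had 52.0 ± 10.8 CPM in NM1 KO marrow, against 42.8 ± 8.03 CPM in NM1 WT. As the stacked plot by type shows, the libraries of the 2 groups did not overlap for H1, H2B and H3. Those for H2A and H4 overlapped. The H3 groups nearly touched: NM1 KO 3, the lowest of its group, had 6.75 CPM, against 6.69 CPM for NM1 WT 3. With so few H3 counts, that gap does not set the groups clearly apart.

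In each type a single gene led, also when the coding length was used in place of the full exon length. Levels between genes are given here per kilobase of annotated exons (RPKM, from CPM). Among H1 genes, Hist1h1c, which encodes histone H1.2, had 146 ± 25.2 RPKM in NM1 KO marrow, against 79.7 ± 9.07 RPKM in NM1 WT. Hist1h1b came next with 7.99 ± 3.94 RPKM in NM1 KO marrow, against 5.23 ± 2.34 RPKM in NM1 WT. Among H2A genes, Hist1h2ap had 147 ± 36.6 RPKM in NM1 KO marrow, against 169 ± 33.4 RPKM in NM1 WT. Over all 6 libraries its mean of 158 RPKM was above the 113 RPKM of Hist1h1c, but Hist1h1c was higher in NM1 KO 1 and NM1 KO 2. Per kilobase of coding length Hist1h1c was the higher of the 2, at a mean of 275 against 194. Hist1h2bc led the H2B genes with 41.1 ± 8.14 RPKM in NM1 KO marrow, against 27.6 ± 3.31 RPKM in NM1 WT. Hist3h2ba followed at 13.4 ± 3.28 RPKM in NM1 KO marrow, against 14.0 ± 2.50 RPKM in NM1 WT. Hist1h4i led the H4 genes with 44.1 ± 6.21 RPKM in NM1 KO marrow, against 36.9 ± 5.35 RPKM in NM1 WT. Among H3 genes the leader, Hist1h3c, reached 4.63 ± 1.09 RPKM in NM1 KO marrow, against 2.54 ± 1.23 RPKM in NM1 WT.

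**Figure D2:**
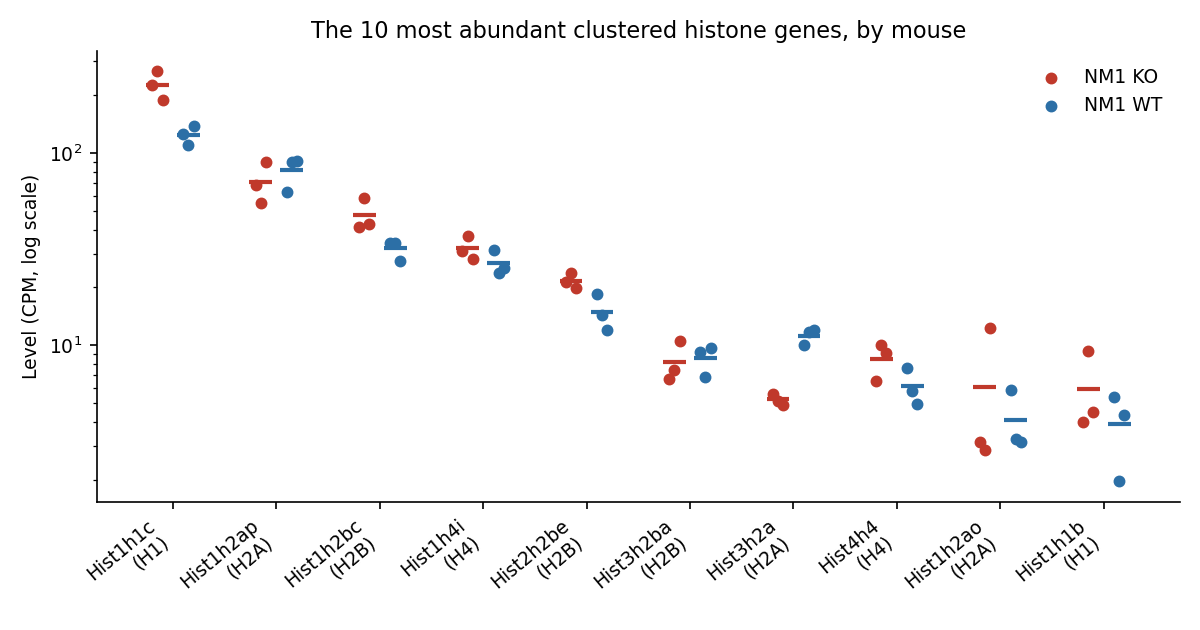
CPM, on a log axis, of the 10 clustered histone genes with the highest mean CPM, 1 point for each mouse and a bar at the mean, NM1 KO left of NM1 WT for each gene. Hist1h1c stands above the rest in both genotypes, and Hist3h2a is the one of the 10 whose NM1 KO points all lie below its NM1 WT points.

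Sequence shared between copies limits several of these levels, since the files do not say how reads that map to several genes were counted. Of 75-base windows of a member's transcripts, the share found in no other gene's annotated transcripts was under 50% for 32 of the 68 members. It was under 10% for 11 and 0% for 5. For Hist1h2ap it was 7.35% and for Hist1h2ao, the next H2A gene by level, 6.90%. The level of either may thus be partly that of its copies, or may lack reads shared with them. Which of these holds was not tested. The share was 93.3% for Hist1h1c, 72.9% for Hist1h2bc, 77.6% for Hist1h4i and 100% for Hist2h2be. The 7 members at 0 counts were Hist1h2aa, Hist1h2ba, Hist2h2aa1, Hist2h2aa2, Hist2h2bb, Hist2h3b and Hist2h3c1. A count of 0 allows up to 0.0530 CPM over all libraries (3 read pairs, 6 counts, counting error only), and the last 5 of these genes have no window of their own.

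The comparison of NM1 KO with NM1 WT asks how the loss of nuclear myosin 1 changes these transcripts. A filter on low counts left 36 of the 68 members in the test: 5 H1, 8 H2A, 10 H2B, 3 H3 and 10 H4 genes. Of the tested members, 1 rose in NM1 KO, Hist1h1c, and 0 fell (edgeR's quasi-likelihood test, Benjamini-Hochberg adjusted p under 0.05). Over all 15069 tested genes, 0.591% were called higher and 0.186% lower, 0.776% in all. At an unadjusted p under 0.05 there were 4 members, Hist1h1c, Hist3h2a, Hist1h2bc and Hist2h2be, against 16.8% of all tested genes. The median log2 fold change of the tested members was 0.51, against 0.00 over all tested genes. Without NM1 KO 2 it was 0.21, and without NM1 WT 2 it was 0.30. The fold change was above 0 in 28 of the 36, against 50.2% of all tested genes. The 3 NM1 KO libraries all lay above the 3 NM1 WT libraries in 3 members (8.33%), against 10.8% of all tested genes, and all below them in 1 (2.78%), against 9.75%. A gene can pass the filter through the group in which it is high, so these figures describe the 36 and not all 68. In bulk marrow, fewer cells of a type and less RNA per cell cannot be told apart.

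**Figure D3:**
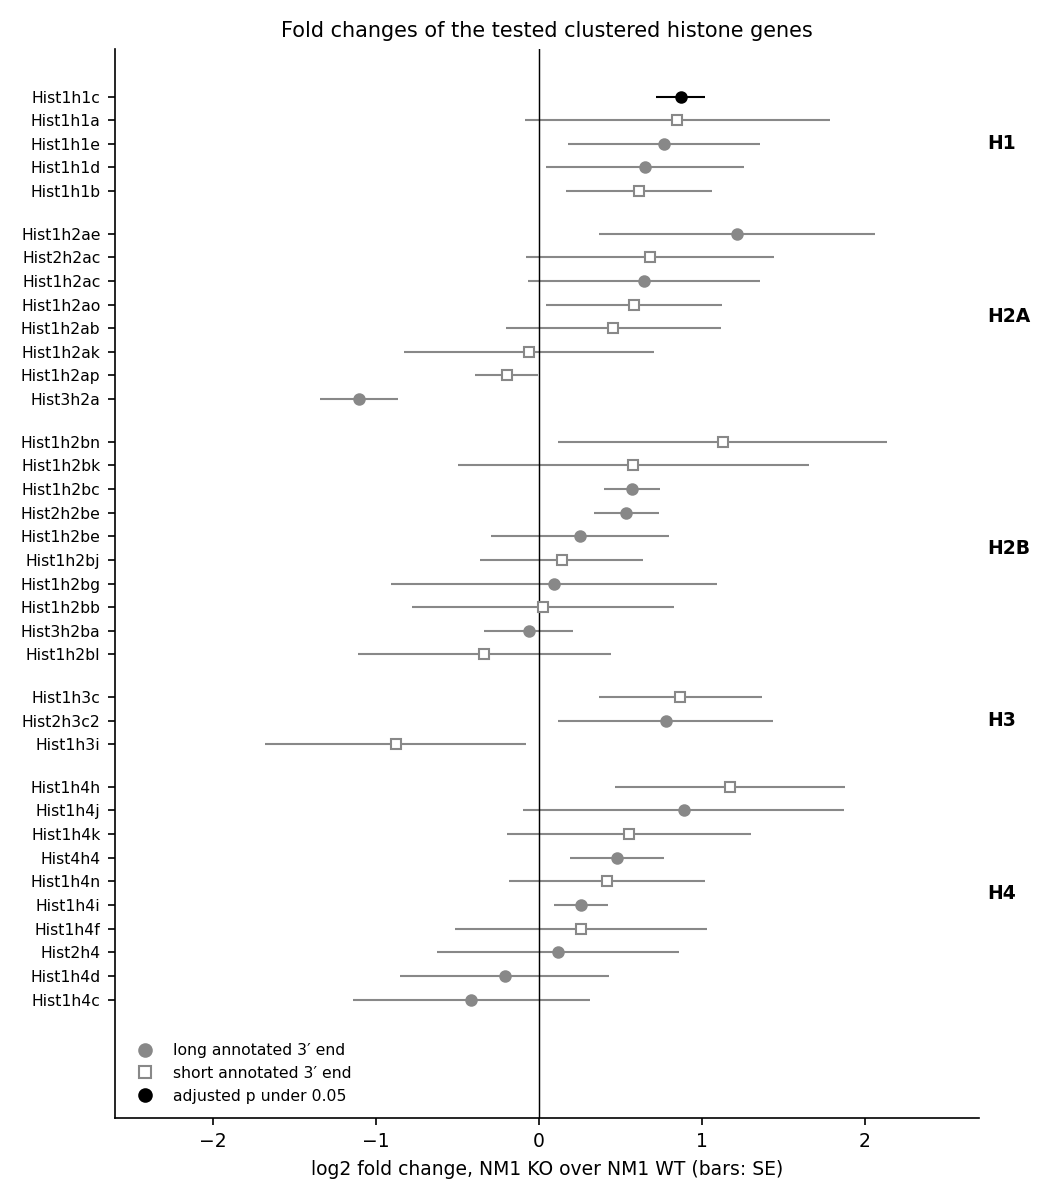
Log2 fold change of NM1 KO over NM1 WT for the 36 tested clustered histone genes, grouped by type, with bars for the SE. Filled circles have a long annotated 3′ end, open squares a short one and black marks Hist1h1c, the gene past the adjusted threshold. Of the 36 genes, 28 lie right of 0, most with wide bars.

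Hist1h1c (ENSMUSG00000036181, chr13:23738808-23740367, plus strand) had 227, 266 and 188 CPM in NM1 KO marrow, against 126, 110 and 138 CPM in NM1 WT. All 3 NM1 KO mice were higher than all 3 NM1 WT mice, and the lowest of them was NM1 KO 3. The fold change was 1.83, a log2 fold change of 0.87 (SE 0.15, edgeR adjusted p = 0.0302). The direction held under all 19 alternatives, but the call did not: adjusted p ranged from 2.05e-07 to 0.142. With NM1 KO 1 left out the log2 fold change was 0.87 and adjusted p was 0.0561, and with NM1 KO 2 left out they were 0.74 and 0.1004. Leaving out NM1 WT 1 gave 0.88 and 0.142, and leaving out NM1 WT 3 gave 0.94 and 0.0616. Without NM1 WT 2 the gene was still called, with a log2 fold change of 0.79 and an adjusted p of 0.0422. With a covariate for the Y-linked state, the log2 fold change was 0.84 and edgeR's adjusted p was 0.0554. The other 4 tested H1 genes had log2 fold changes of 0.61 to 0.85 with SE of 0.45 to 0.93, and none passed the threshold. Their levels were low: all H1 genes other than Hist1h1c summed to 11.1, 26.0 and 10.7 CPM in NM1 KO marrow, against 11.3, 3.71 and 14.7 CPM in NM1 WT. The groups overlapped there. Hist1h1e also shares annotated exon with Hist1h2be on the same strand, so their reads cannot be told apart in the shared stretch. An annotated gene on the other strand overlaps every H2A member, such as Gm44466 at Hist1h2ap and Gm44313 at Hist3h2a. Among the other types only Hist2h2bb, Hist2h3b and Hist1h4b have one. No strand setting is given, so reads in such overlaps may come from either gene or may have been left uncounted. This limits the H2A levels as a type, and its effect was not tested.

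Hist3h2a (ENSMUSG00000078851, chr11:58954685-58956830, plus strand), an H2A gene of the Hist3 cluster, was the member with the largest negative fold change. It had 5.61, 5.16 and 4.92 CPM in NM1 KO marrow, against 10.04, 11.7 and 12.0 CPM in NM1 WT. The groups lay well apart, with little spread within either. The log2 fold change was -1.10 (SE 0.24), and edgeR's adjusted p of 0.0565 missed the threshold. The gene passed in the likelihood ratio test (adjusted p = 0.00959), in DESeq2 (0.00229), with no filter on low counts (0.0137) and without haemoglobin, immunoglobulin and mitochondrial genes (0.0423). Hist3h2a lies 16.7 Mb from Myo1c on the same chromosome; whether that position bears on its level was not tested. Its neighbour Hist3h2ba, an H2B gene upstream in the same cluster, had 6.70, 7.46 and 10.5 CPM in NM1 KO marrow, against 9.23, 6.84 and 9.71 CPM in NM1 WT. These overlapped, with a log2 fold change of -0.06 (SE 0.27). Trim17 shares annotated exon with Hist3h2a on the same strand and had 0, 0 and 0 counts in NM1 KO and 2, 0 and 4 counts in NM1 WT.

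The H2B genes Hist1h2bc and Hist2h2be stood higher in every NM1 KO mouse without passing edgeR's test at the filter used. Hist1h2bc (ENSMUSG00000018102) had 41.5, 58.4 and 42.7 CPM in NM1 KO marrow, against 34.1, 34.2 and 27.5 CPM in NM1 WT. Its log2 fold change was 0.57 (SE 0.17, edgeR adjusted p = 0.134), and with no filter on low counts it was called, at an adjusted p of 0.0164. Hist2h2be (ENSMUSG00000068854) had 21.4, 23.9 and 20.0 CPM in NM1 KO marrow, against 18.6, 14.3 and 12.1 CPM in NM1 WT. Its log2 fold change was 0.54 (SE 0.20, edgeR adjusted p = 0.204). The groups of both genes were close, with NM1 KO 1 and NM1 KO 3 nearest to the NM1 WT mice. The other tested H2B genes ran from -0.33 for Hist1h2bl to 1.13 for Hist1h2bn, and Hist1h2bn rested on 0.696, 0.737 and 1.13 CPM in NM1 KO marrow, against 0, 0.116 and 1.05 CPM in NM1 WT.

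Hist1h2ap, the leading H2A gene, had 67.9, 55.1 and 89.9 CPM in NM1 KO marrow, against 62.8, 90.2 and 91.1 CPM in NM1 WT. Its groups overlapped, and its log2 fold change was -0.20 (SE 0.19, edgeR adjusted p = 0.657). Hist1h2ao, close to it in sequence, had 3.13, 2.86 and 12.3 CPM in NM1 KO marrow, against 5.84, 3.25 and 3.15 CPM in NM1 WT, with NM1 KO 3 far above the rest. Its log2 fold change was 0.58 (SE 0.54), and -0.44 without that library. Apart from Hist3h2a, the other tested H2A genes were all under 3 CPM in each library. Among them the values ran from -0.06 for Hist1h2ak to 1.21 for Hist1h2ae (SE 0.85), and none passed the threshold.

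No H4 gene passed the threshold. Hist1h4i had 30.9, 37.0 and 28.2 CPM in NM1 KO marrow, against 31.2, 23.9 and 25.3 CPM in NM1 WT, a log2 fold change of 0.26 (SE 0.17, edgeR adjusted p = 0.473). Hist4h4 had 6.53, 9.99 and 9.10 CPM in NM1 KO marrow, against 7.60, 5.80 and 4.98 CPM in NM1 WT, a log2 fold change of 0.48 (SE 0.29, edgeR adjusted p = 0.433). In both genes 1 NM1 WT mouse reached into the range of NM1 KO. The others ran from -0.41 for Hist1h4c to 1.17 for Hist1h4h, each with an SE of 0.60 or more.

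H3 genes had few counts. The share of windows found in no other gene was under 50% for 7 of the 12 H3 members. How shared reads were counted is not stated, nor is poly(A) selection. Few counts therefore do not show that H3 transcripts were few. Hist1h3c had 2.78, 2.30 and 3.66 CPM in NM1 KO marrow, against 1.63, 0.811 and 2.36 CPM in NM1 WT, a log2 fold change of 0.87 (SE 0.50, edgeR adjusted p = 0.412). Hist2h3c2 had 0.78 (SE 0.66) and Hist1h3i -0.88 (SE 0.80), on the log2 scale. Hist1h3g, below the filter, had 16, 42 and 4 counts in NM1 KO and 0, 6 and 4 counts in NM1 WT. Hist1h3e, also below it, had 10, 34 and 14 counts in NM1 KO and 0, 8 and 4 counts in NM1 WT. Both were highest in NM1 KO 2. The 32 members that were not tested summed to 5.83, 10.4 and 6.47 CPM in NM1 KO marrow, against 3.12, 4.52 and 6.49 CPM in NM1 WT.

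With regard to polyadenylated histone transcripts, members were parted by the annotated 3′ end, a grouping chosen after the values were seen. A long end passes the stem-loop by at least 100 bases or, without the motif, runs at least 150 bases past the stop codon, and 26 members had one. Where a gene has several annotated transcripts, the one reaching furthest past the stem-loop was taken. A long form past the stem-loop thus took precedence over a short one. AATAAA or ATTAAA stood in the last 60 bases of 14 of these, and of 1 of the 42 members with a short end. Members with a long end summed to 360, 443 and 317 CPM in NM1 KO marrow, against 254, 216 and 253 CPM in NM1 WT. These groups did not overlap, and the log2 ratio was 0.63. Members with a short end summed to 93.3, 94.8 and 126 CPM in NM1 KO marrow, against 89.9, 106 and 118 CPM in NM1 WT. Their log2 ratio was 0.00. Of this short-end sum, Hist1h2ap alone made up 58.1 to 72.8% in NM1 KO and 69.9 to 84.9% in NM1 WT. The sum thus mostly follows that gene, and no sum without it was taken. Without Hist1h1c, those with a long end summed to 132, 177 and 129 CPM in NM1 KO marrow, against 128, 107 and 115 CPM in NM1 WT, a log2 ratio of 0.33. The median fold change was alike in the tested members of either kind, 0.51 for the 18 with a long end and 0.50 for the 18 with a short end. The difference between the sums was not tested.

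Of the 10 members with the highest mean CPM, 7 had a long annotated end, and Hist1h2ap, Hist1h2ao and Hist1h1b had a short one. In RPKM, the median was 0.868 for the 26 members with a long end and 0.842 for the 42 with a short end. That measure divides by exon length, which includes the long end itself, so it lowers the members that have one. Unscaled for length, a mean under 1 CPM was found in 12 of the 26 and in 32 of the 42. Whether the 2 kinds differ in level was not tested. Counts per gene do not show where a read lies, so they do not tell how many reads came from beyond the stem-loop. Whether the libraries were selected for poly(A) RNA is not given in the sources used here. For comparison, 15 RNAs known to lack a tail, such as Rn7sk, Rpph1 and Scarna2, summed to 5.25 to 10.3 CPM in NM1 KO marrow, against 6.95 to 9.44 CPM in NM1 WT. Of these 15, 6 had 0 counts in every library.

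**Figure D4:**
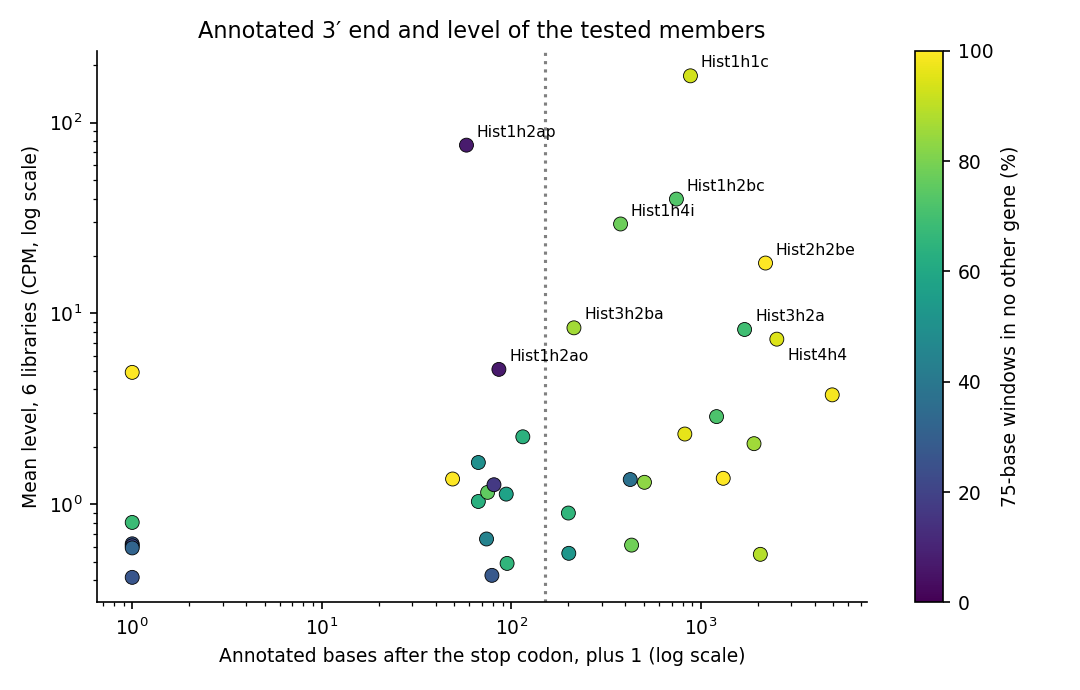
Mean CPM over the 6 libraries against the number of annotated bases after the stop codon, plus 1, both on log axes, for the 36 tested clustered histone genes; colour gives the percentage of 75-base windows found in no other gene. The dotted line at 150 bases parts the long ends from the short ones, and of the named high points Hist1h2ap and Hist1h2ao stand left of it, both with few windows of their own.

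Promoters were matched for 62 of the 70 genes in RefSeq's GRCm38.p6 table, each 250 bases before and 50 bases after the gene's start, and 4 words were searched on both strands. The CCAAT box, bound by factors such as NF-Y, was found in 85.5% of them, against 37.4% of all 32851 promoters of this length. It was in all 6 H1, 18 H2A, 16 H2B and 10 H3 promoters, but in 3 of 12 H4 promoters. TATAAA was in 56.5% of the members' promoters, against 13.6% of all, with 4 of 6 for H1 and 8 of 12 for H4. AAACACA, an element known from H1 promoters, was in 5 of 6 H1 promoters and in 14.5% of all members, against 7.18% of all promoters. AGATAA, a word bound by GATA factors such as the erythroid factor GATA1, was in 21.0% of members and 11.2% of all promoters, and in 0 of the 6 of H1. The promoters of the leading H1 and H4 genes are shown for the CCAAT box, present in the first and not found in the second. The capitals mark AAACACA and CCAAT in Hist1h1c and TATAAA in Hist1h4i.
Hist1h1c, chr13:23738557-23738856, plus strand: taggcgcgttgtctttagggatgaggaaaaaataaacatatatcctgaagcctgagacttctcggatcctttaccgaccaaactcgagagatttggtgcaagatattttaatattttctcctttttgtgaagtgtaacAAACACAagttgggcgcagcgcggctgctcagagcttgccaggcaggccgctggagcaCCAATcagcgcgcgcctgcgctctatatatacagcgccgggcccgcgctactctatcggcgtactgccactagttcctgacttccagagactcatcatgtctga
Hist1h4i, chr13:22041313-22041612, minus strand: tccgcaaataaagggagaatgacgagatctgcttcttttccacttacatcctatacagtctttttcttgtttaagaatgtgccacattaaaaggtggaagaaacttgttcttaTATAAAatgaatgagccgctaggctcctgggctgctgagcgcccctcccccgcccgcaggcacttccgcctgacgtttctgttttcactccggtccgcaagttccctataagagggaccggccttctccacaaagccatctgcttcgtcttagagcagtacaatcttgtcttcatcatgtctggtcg
In Hist1h1c the words begin 112 and 54 bases before the start, and in Hist1h4i TATAAA begins 137 bases before it. These matches describe letters and were not tied to any change in level.

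Genes that act on histone mRNA were set beside the members. Of 21 tested genes of histone mRNA 3′ ends and histone gene transcription, 0 passed edgeR's threshold in either direction, with a median log2 fold change of 0.04. There were 3 at an unadjusted p under 0.05, against 16.8% of all tested genes. DESeq2, the likelihood ratio test and limma-voom called 0 of the 21. Slbp, which encodes the stem-loop binding protein, had 290, 350 and 309 CPM in NM1 KO marrow, against 247, 269 and 241 CPM in NM1 WT (0.33, SE 0.12, edgeR adjusted p = 0.212). Npat, the activator of histone genes at the histone locus body, had 22.1, 26.99 and 24.7 CPM in NM1 KO marrow, against 16.6, 18.2 and 16.2 CPM in NM1 WT (0.53, SE 0.16, edgeR adjusted p = 0.144). Both were higher in each NM1 KO mouse. Of 21 histone chaperones, 0 passed in any of these 4 tests, 2 had an unadjusted p under 0.05 in edgeR and the median was 0.04.

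Histone genes outside the clusters, whose mRNAs carry a tail and do not depend on replication, are a further set of histone transcripts. Of 12 tested, 0 passed in edgeR, 5 had fold changes above 0 and the median was -0.03. At an unadjusted p under 0.05 there were 2, against 16.8% of all tested genes. DESeq2 called 1 of the 12 lower, against 794 of all 15069 tested genes in either direction. The likelihood ratio test and limma-voom called 0 of the 12. H1f0, the linker histone of non-dividing cells, had 66.9, 51.9 and 77.1 CPM in NM1 KO marrow, against 93.9, 58.1 and 116 CPM in NM1 WT (-0.45, SE 0.22, edgeR adjusted p = 0.340). The groups overlapped. H2afy, which encodes macroH2A1, had 358, 289 and 391 CPM in NM1 KO marrow, against 459, 466 and 502 CPM in NM1 WT (-0.46, SE 0.14, edgeR adjusted p = 0.134). H3f3b, which encodes H3.3, had 950 ± 52.9 CPM in NM1 KO marrow, against 866 ± 38.5 CPM in NM1 WT.

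Most erythroid markers had fold changes above 0. Of 34 tested erythroid markers, 0 passed edgeR's threshold in either direction, 28 were above 0 and the median log2 fold change was 0.32. At an unadjusted p under 0.05 there were 18, against 16.8% of all tested genes. DESeq2 called 9 of the markers higher, the likelihood ratio test 3 and limma-voom 0. Over all 15069 tested genes, in either direction, these tests called 794, 541 and 37. The smallest p belonged to Car2, carbonic anhydrase 2, with 2333, 3202 and 2638 CPM in NM1 KO marrow, against 1614, 2043 and 1612 CPM in NM1 WT (0.63, SE 0.16, edgeR adjusted p = 0.0867). Tal1, an erythroid and megakaryocyte transcription factor, was next by p at 0.62 (SE 0.16, edgeR adjusted p = 0.0977). All markers including the globins summed to 90114 to 96465 CPM in NM1 KO marrow, against 74144 to 98778 CPM in NM1 WT. Those other than the globins summed to 18433, 20899 and 23340 CPM in NM1 KO marrow, against 16583, 17214 and 16184 CPM in NM1 WT, with no overlap. NM1 KO 3 had the highest of these sums and the lowest Hist1h1c level of the NM1 KO mice. Hist1h1c was 1.23, 1.28 and 0.805% of that sum in NM1 KO and 0.758, 0.637 and 0.852% in NM1 WT, so that NM1 KO 3 fell within the range of NM1 WT. Of 11 genes of late erythroid chromatin condensation and enucleation, 0 passed in any of the 4 tests, 2 had an unadjusted p under 0.05 in edgeR and the median was 0.22. The part of erythroid cells in the level of Hist1h1c was not tested.

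Cells in S phase and other marrow cells were read in the same way. Of 30 DNA replication genes, 0 passed in edgeR and 5 had an unadjusted p under 0.05, against 16.8% of all tested genes. DESeq2 called 1 of the 30 higher, against 794 of all 15069 tested genes in either direction. The median of the 30 was 0.13. Their sum was 5581 to 7475 CPM in NM1 KO marrow, against 5340 to 5832 CPM in NM1 WT. Hist1h1c was 2.51 to 4.26% of that sum in NM1 KO and 1.88 to 2.51% in NM1 WT. Of 20 platelet and megakaryocyte markers, 15 rose and the median was 1.28, with a sum of 3049 to 6469 CPM in NM1 KO marrow, against 1648 to 1978 CPM in NM1 WT. Hist1h1c was 4.12 to 6.16% of the platelet sum in NM1 KO and 6.17 to 7.63% in NM1 WT. Limma-voom called 7 of these platelet markers higher, against 37 of all tested genes in either direction. Over all tested genes edgeR called 0.591% higher and 0.186% lower. Of 12 eosinophil, basophil and mast cell genes 7 fell (median -1.24), of 10 marrow stroma genes 6 rose (1.23) and of 9 skeletal muscle genes 5 rose (2.35). Limma-voom called 7 of the eosinophil, basophil and mast cell genes lower, and 2 of the stroma genes and 2 of the muscle genes higher. Neutrophil granule genes (13, median -0.46) and early B cell genes (13, median 0.16) had 0 past the threshold in edgeR, and 8 and 3 at an unadjusted p under 0.05. DESeq2 called 7 of the neutrophil genes lower and 2 of the B cell genes higher. The part of these cells in the members' levels was not tested.

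**Figure D5:**
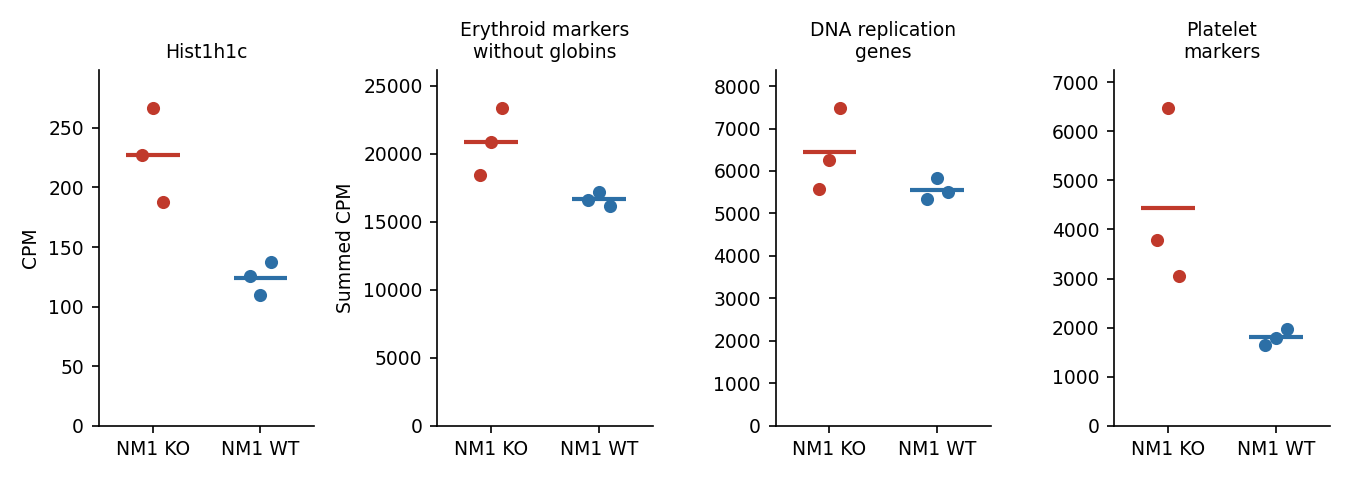
Hist1h1c in CPM and the summed CPM of erythroid markers other than globins, of DNA replication genes and of platelet markers, 1 point for each mouse with a bar at the mean, NM1 KO left of NM1 WT, each axis from 0. Hist1h1c, the erythroid sum and the platelet sum do not overlap between genotypes, while the replication sums do.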

How the data were processed

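The authors deposited 1 table of raw counts per Ensembl gene for each mouse, with no normalisation. The submitters' processing notes name the aligner HISAT2 2.0.4 and the counter HTSeq, beside SAMtools 0.1.19, Trimmomatic 0.36 and FastQC, and the builds GRCm38 and mm10. Neither the strand setting nor the handling of reads that map to several genes is given in the sources used here. IDs were matched to GENCODE M21 symbols (46091 of 46603 rows; the rest held at most 0.0532% of a library).

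The deposited counts were tested with edgeR 4.0.16 in R 4.3.3: filterByExpr defaults, TMM factors, the quasi-likelihood test with genotype as the only term, and Benjamini-Hochberg adjustment over 15069 genes, with a threshold of 0.05. The code was checked on simulated counts. CPM values use the TMM factors, and RPKM values are CPM per 1000 bases of the union of annotated exons. Transcript ends and shared windows were read from GENCODE M21 transcripts, promoters from RefSeq. A count of 0 was given a floor of 6 counts. Intervals and floors cover counting error only.

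Named members are those past the threshold, the 5 of highest RPKM in each type and the 3 largest fold changes each way. Of each companion list, up to 4 members past the threshold or the 2 of smallest p were eligible to be named. H2afy, H1f0, H3f3b, Rpph1 and any further genes outside this rule were chosen after their values were seen. The members and lists were chosen with earlier results of these data known. Alternatives were other scalings (RLE, upper-quartile, totals), other filters, the likelihood ratio test, limma-voom (limma 3.58.1), DESeq2 1.42.0, a replicate block, halved counts and leaving out each library. The Y-linked covariate and the grouping by transcript end were added after the data were seen.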

Additional observations from a re-analysis of the deposited data

How the results depend on the processing

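Depth and 3 mice a group limit the members under 1 CPM, whose fold changes rest on few reads. Members called higher numbered 1, against 2 with no filter on low counts, 0 with the Y-linked covariate and 0 to 1 when a library was left out. Members called lower numbered 0, against 1 (Hist3h2a) with no filter, with the likelihood ratio test, with DESeq2, without haemoglobin, immunoglobulin and mitochondrial genes, and at a threshold of 0.10. Calls over all genes numbered 117, against 1138 with no filter, 794 with DESeq2, 541 with the likelihood ratio test, 207 without those abundant genes, 60 with the Y-linked covariate, 37 with limma-voom, and 26 to 344 when a library was left out. The median log2 fold change of the tested members ranged from 0.21, without NM1 KO 2, to 0.59, without NM1 KO 3. The log2 ratio of the summed level kept its sign under each alternative run, overall (0.38 to 0.52) and in every type.

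The replicate numbers were not taken to pair the mice: same-numbered mice had correlations of 0.06, 0.12 and 0.06 of their deviations, and each correlated best with its own number. The replicate block gave 421 calls over all genes and 1 among the members, Hist1h1c, with a member median of 0.46.

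Gene by gene, the alternatives were run for the named members only, and signs reversed in the following, whose fold changes were near 0 or had wide standard errors. Hist1h2bb (0.03) had -0.0020 with upper-quartile scaling, -0.63 with limma-voom, -0.52 with the replicate block, -0.0813 with the Y-linked covariate, and -1.29 to 0.53 when a library was left out. Hist3h2ba (-0.06) had 0.10 with the Y-linked covariate and -0.28 to 0.0617 when a library was left out. When a library was left out, Hist1h1d ran from -0.23 to 1.13, Hist1h2ak from -0.61 to 0.68, Hist1h2ao from -0.44 to 0.93, Hist1h2bj from -0.11 to 0.34, Hist1h4f from -0.26 to 1.15 and Hist1h4n from -0.0125 to 0.74. The cause was not tested. Some members had no value under the stricter filters, which left 23 members, and DESeq2 was run on the genes kept by edgeR's filter. Windows of 50 and 100 bases put 36 and 29 members under 50% in place of 32, and the rule of 150 bases after the stop codon alone gave the same number of members with a long end, 26.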
